A study of Mus musculus with 2 samples.

Results

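The 10 genes described here belong to the Notch pathway and the secretory choice it controls in the gut: the ligands Dll1, Dll4 and Jag1, the receptors Notch1 and Notch2, the receptor-modifying enzyme Mfng, the Notch targets Hes1 and Nrarp, and the transcription factors Hes6 and Atoh1. They were taken by name, and all 10 were found among the 22253 genes of the deposited single-cell table. The cells came from 5 mouse distal small intestinal organoid cultures, 3 of them Etv1 mutant and 2 of them control, and every culture carried the reporters that the labels give as Neurog3-RFP;Gcg-Venus. Etv1 is an ETS family transcription factor, and the labels give neither the kind of mutation nor the gate used to sort the cells. Each culture was marked with a hashtag oligo, the cultures were pooled, and 1 RNA library and 1 hashtag library were made from the pool.

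Notch signalling passes between touching cells. A ligand of the Delta or Jagged family on 1 cell binds a Notch receptor on its neighbour, the receptor is cut by gamma-secretase, and the freed intracellular part joins Rbpj in the nucleus and turns on targets such as Hes1. In the intestinal crypt Hes1 represses Atoh1, the factor that commits a progenitor to the secretory lineage, so that cells receiving the signal stay stem cells or become absorptive enterocytes, and cells escaping it become goblet, Paneth or enteroendocrine cells. Those secretory cells carry Dll1 and Dll4 and signal to the stem cells beside them.

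Of the 10 genes, 4 were higher in secretory than in stem cells in all 5 cultures, as described below, and their promoters are printed for that reason. The RefSeq windows (GRCm38.p6) hold 250 bases before and 50 after the start of transcription, and 8 of the 10 genes had an entry. Dll1 and Hes6 have 2 windows each, of which the one nearer the gene's annotated 5′ end is shown. Dll1 has a window at chr17:15376883-15377182 on the minus strand, Dll4 at chr2:119325534-119325833 on the plus strand, Atoh1 at chr6:64728875-64729174 on the plus strand and Hes6 at chr1:91413989-91414288 on the minus strand. The letters are written 5′ to 3′ on the gene's own strand. Capitals mark every CANNTG (the E-box, the core that Atoh1 and related factors bind) and every CACNAG on either strand (the N-box, a core that Hes repressors bind).
Dll1: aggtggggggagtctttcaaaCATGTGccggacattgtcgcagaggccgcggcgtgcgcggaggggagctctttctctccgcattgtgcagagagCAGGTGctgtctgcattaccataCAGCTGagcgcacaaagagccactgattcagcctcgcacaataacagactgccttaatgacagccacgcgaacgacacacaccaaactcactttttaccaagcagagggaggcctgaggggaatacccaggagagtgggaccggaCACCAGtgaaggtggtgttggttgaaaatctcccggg
Dll4: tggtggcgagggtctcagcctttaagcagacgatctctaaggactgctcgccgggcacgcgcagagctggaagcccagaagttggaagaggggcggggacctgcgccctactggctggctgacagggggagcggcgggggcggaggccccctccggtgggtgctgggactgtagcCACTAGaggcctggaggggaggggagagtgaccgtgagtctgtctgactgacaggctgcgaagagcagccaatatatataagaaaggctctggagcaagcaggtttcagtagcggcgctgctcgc
Atoh1: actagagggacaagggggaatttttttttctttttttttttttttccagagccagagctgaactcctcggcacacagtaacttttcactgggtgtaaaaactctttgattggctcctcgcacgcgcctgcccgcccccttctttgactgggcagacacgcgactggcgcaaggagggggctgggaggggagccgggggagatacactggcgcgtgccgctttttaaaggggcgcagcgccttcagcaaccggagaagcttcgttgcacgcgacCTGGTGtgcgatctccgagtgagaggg
Hes6: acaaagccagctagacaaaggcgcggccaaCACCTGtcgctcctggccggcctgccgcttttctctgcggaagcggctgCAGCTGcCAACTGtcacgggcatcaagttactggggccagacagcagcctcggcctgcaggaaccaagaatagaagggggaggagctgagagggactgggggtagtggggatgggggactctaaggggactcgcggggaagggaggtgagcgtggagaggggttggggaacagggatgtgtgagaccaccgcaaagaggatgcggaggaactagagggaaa
Dll1 held 3 E-box matches and 1 N-box match, and Hes6 held 3 E-box matches and no N-box match. Dll4 and Atoh1 each held 1 N-box match and no E-box match. The other Dll1 window held 1 E-box match and no N-box match, and the other Hes6 window held 1 E-box match and 2 N-box matches. None of these matches overlapped another. An E-box match is found in 72.3% of all 32851 mouse promoter windows of this length and an N-box match in 42.5%. None of the 4 windows held TGGGAA, a core of the Rbpj site, on either strand, and 25.6% of all windows hold it. It was also absent from every other window of the 8 genes, among them those of Nrarp, Notch1 and Notch2.

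After cells were assigned to cultures, 1432 single-culture cells remained, 760 from mutant and 672 from control cultures, with 197 to 349 cells and 4193197 to 7254380 UMIs (unique molecular identifiers, each a counted transcript) per culture. They formed 11 clusters, of which 7 were named from marker genes: 83 goblet/Paneth-like cells and 63 enteroendocrine-like cells, together called secretory, 233 enterocyte-like cells, called absorptive, 173 stem-like cells and 325 cycling-like cells. The other 555 cells lay in 4 unnamed clusters, and a class called highest or lowest below is so among the named classes. One unnamed cluster of 184 cells, shallow at a median of 5724 UMIs and led by mitochondrial genes, had pooled levels above every named class for Jag1, Notch1, Notch2 and Hes1, which are given with those genes. The 10 genes and the wider Notch list were kept out of the clustering, but the classes come from the same cells, so the class levels below are a description with no test. The stem, cycling, enterocyte, goblet, Paneth, enteroendocrine and tuft marker lists were detected in full, whereas the mesenchymal markers Col1a1, Col3a1, Pdgfra and Dcn and the endothelial marker Cdh5 were at 0, and the immune list summed to 0.946 to 2.40 CPM (counts scaled to 1000000 UMIs) in mutant and 1.07 to 1.49 CPM in control cultures. The mesenchymal list, through its remaining marker Vim, summed to 0.306 to 1.44 CPM in mutant and 3.29 to 5.24 CPM in control cultures. Etv1 itself stood at 3.21, 3.06 and 3.10 CPM in mutant cultures against 6.20 and 6.28 CPM in control cultures, with no overlap. Of the 11061 genes tested below in all cells, 7.77% lay lower in mutant cultures without overlap. Enteroendocrine-like cells held 17, 18 and 13 of its 20, 20 and 13 counts in mutant cultures and 43 and 44 of its 45 and 44 counts in control cultures, so its transcripts were still counted in mutant cells.

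Dll1, a Delta-type ligand, was concentrated in secretory cells. In secretory cells it stood at 39.6, 54.1 and 58.5 CPM in mutant cultures and 27.9 and 41.9 CPM in control cultures. In stem-like cells it stood at 2.45, 4.29 and 12.4 CPM in mutant cultures and 5.37 and 2.40 CPM in control cultures. The secretory value was the higher in each of the 5 cultures, and the lowest secretory culture lay above the highest stem culture. The mean difference, secretory minus stem, was 2.99 ± 0.75 on the log2(CPM + 1) scale (SD, n = 5). Secretory cells held 107 of the 153 Dll1 counts, or 69.9%, while they held 8.01% of all UMIs. Goblet/Paneth-like cells had the highest mean, 51.8 ± 21.0 CPM, followed by enteroendocrine-like cells at 29.7 ± 30.4 CPM and stem-like cells at 5.38 ± 4.11 CPM, and these neighbours did not differ by more than the larger of their SDs. Of the 17 enteroendocrine-like counts 8 came from mutant culture 1, and without it that mean was 17.5 ± 15.4 CPM (SD, n = 4). Cycling-like cells had 1.11 ± 0.908 CPM, below stem-like cells in 5 of 5 cultures, and enterocyte-like cells had 0.584 ± 0.621 CPM with 3 counts in all (SD, n = 5 for each).

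Dll4, another Delta-type ligand, was also highest in goblet/Paneth-like and then in enteroendocrine-like cells. Its secretory level was 17.0, 14.4 and 18.2 CPM in mutant cultures and 21.3 and 20.9 CPM in control cultures, and its stem level 7.34, 0 and 1.55 CPM in mutant cultures and 2.69 and 2.40 CPM in control cultures. All 5 cultures had the secretory value above the stem value, with a mean log2 difference of 2.65 ± 1.02 (SD, n = 5). Of its 79 counts, 48 lay in secretory cells, or 60.8%. The goblet/Paneth-like mean of 21.4 ± 3.52 CPM exceeded the enteroendocrine-like mean of 10.5 ± 4.29 CPM in every culture, by more than the larger SD, and a mean over cells in place of summed counts gave 42.7 CPM for goblet/Paneth-like cells. The remaining classes were low, at 2.80 ± 2.75 CPM in stem-like, 0.830 ± 1.15 CPM in enterocyte-like and 0.799 ± 0.410 CPM in cycling-like cells, and these did not differ from one another by more than their spread.

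Jag1, the Jagged-type ligand, showed no such order. Its mean lay at 7.71 ± 1.81 CPM in cycling-like, 6.93 ± 6.95 CPM in enteroendocrine-like, 6.88 ± 3.57 CPM in goblet/Paneth-like, 6.58 ± 1.46 CPM in enterocyte-like and 5.36 ± 3.26 CPM in stem-like cells (SD, n = 5 each). No neighbours in this order differed beyond their spread. Secretory cells held 18 of its 210 counts, or 8.57%, close to their 8.01% of all UMIs. The shallow unnamed cluster had 12.9 CPM (16 counts).

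**Figure D1:**
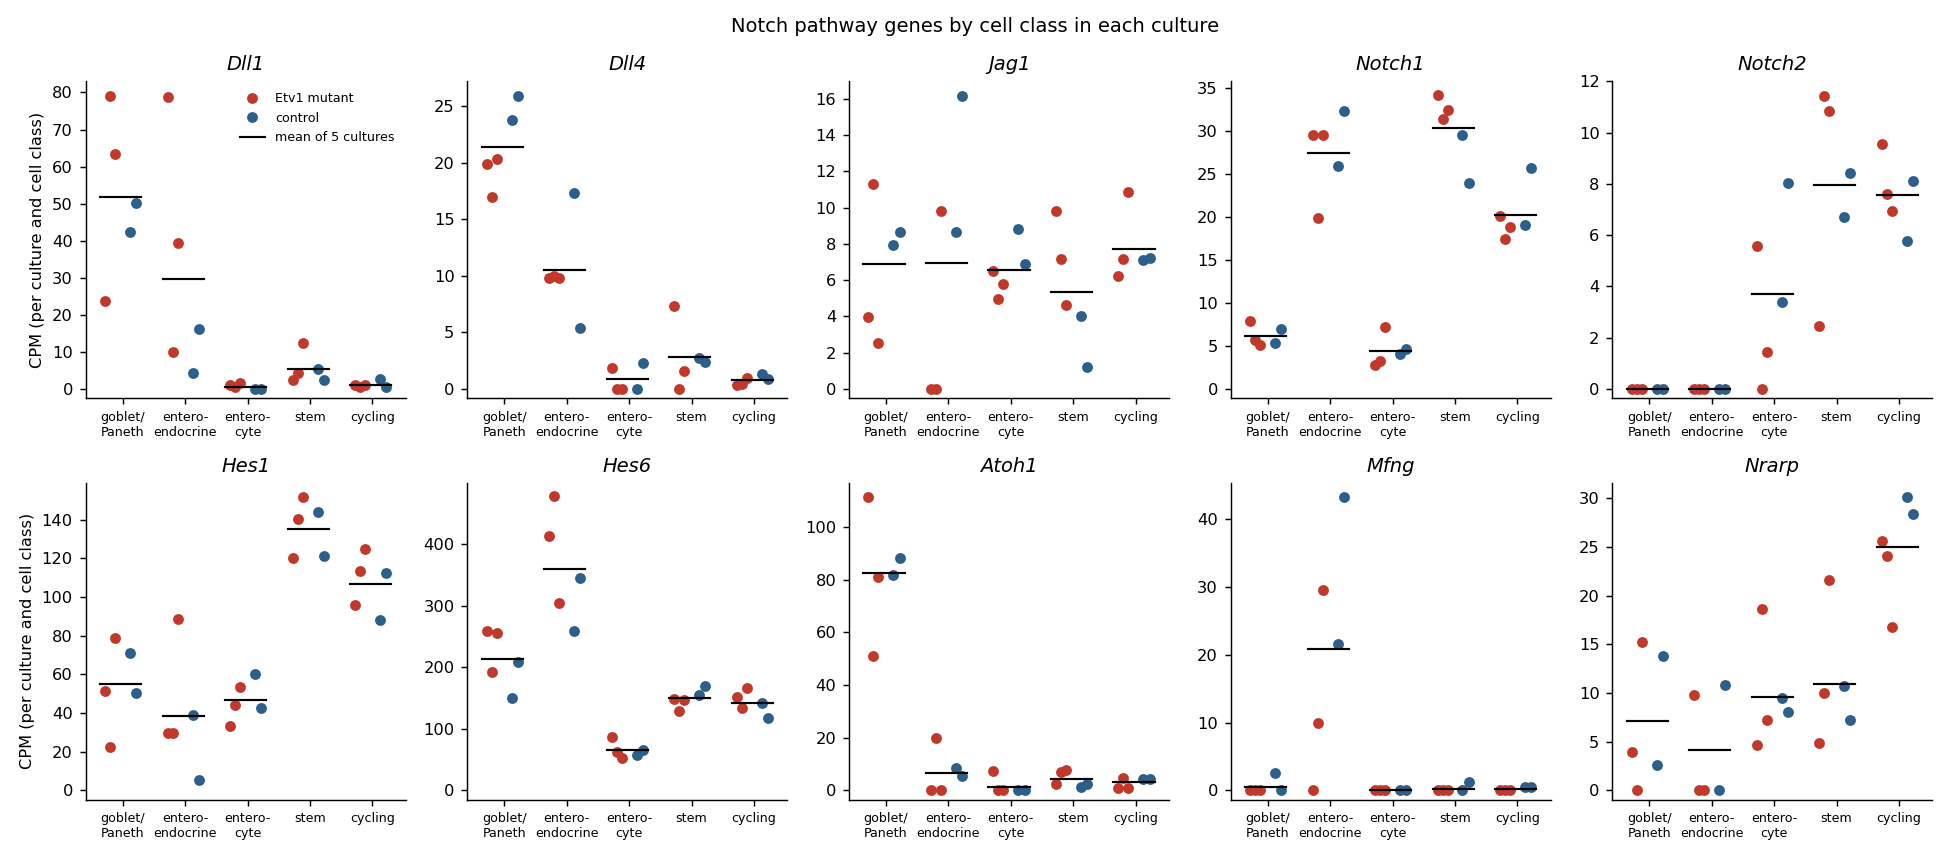
CPM of each of the 10 genes (vertical axis, linear, 1 panel per gene) in the 5 named cell classes; each point is 1 culture, red for Etv1 mutant and blue for control, and the line is the mean of the 5 cultures. Dll1, Dll4 and Atoh1 peak in goblet/Paneth-like cells, Hes6 and Mfng in enteroendocrine-like cells, Hes1 in stem-like cells and Nrarp in cycling-like cells, and Notch2 is at 0 in both secretory classes.

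Atoh1, the factor that specifies the secretory lineage, was counted mostly in goblet/Paneth-like cells. In goblet/Paneth-like cells it stood at 111, 50.9 and 81.2 CPM in mutant cultures and 81.8 and 88.2 CPM in control cultures. Enteroendocrine-like cells had 0, 19.9 and 0 CPM in mutant cultures and 8.65 and 5.39 CPM in control cultures. Every culture had the enteroendocrine-like value below the goblet/Paneth-like one, and stem-like cells, at 4.22 ± 2.99 CPM, differed from enteroendocrine-like cells, at 6.80 ± 8.22 CPM, by less than the spread (SD, n = 5). Taking the secretory classes together, Atoh1 stood at 61.1 ± 14.98 CPM against 4.22 ± 2.99 CPM in stem-like cells, higher in 5 of 5 cultures by 3.73 ± 1.05 on the log2 scale. Its 239 counts were placed with 151 in goblet/Paneth-like, 35 in cycling-like, 14 in stem-like, 8 in enterocyte-like and 5 in enteroendocrine-like cells, and the rest in unnamed clusters. A level of at least 3 Atoh1 UMIs was reached by 23 of 83 goblet/Paneth-like cells, or 27.7%, and by 5 of 325 cycling-like cells, or 1.54%, found in 4 of the 5 cultures. Of the 23 goblet/Paneth-like cells, 20 also had a UMI of Spdef, a goblet and Paneth cell factor, and of the 5 cycling-like cells 1 did. Among enterocyte-like cells 1 cell, of 44161 UMIs, held 7 of the 8 Atoh1 counts.

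Hes6, a Hes family member that counteracts Hes1 in mouse neural cells, was counted in every class and was highest in enteroendocrine-like cells. Secretory cells together had 302.8, 295.8 and 266 CPM in mutant cultures and 191.8 and 242 CPM in control cultures, against 149, 129 and 147 CPM in stem-like cells of mutant cultures and 154 and 169 CPM in those of control cultures. The lowest secretory value was above the highest stem value. The mean log2 difference was 0.78 ± 0.36 (SD, n = 5), the smallest of the 4 genes that were higher in secretory cells in every culture. Enteroendocrine-like cells had 360 ± 86.9 CPM, goblet/Paneth-like cells 213 ± 45.5 CPM, stem-like cells 150 ± 14.6 CPM, cycling-like cells 142 ± 18.3 CPM and enterocyte-like cells 65.1 ± 13.1 CPM. Each step in this order exceeded the larger SD except that between stem-like and cycling-like cells, and goblet/Paneth-like cells were above stem-like cells in 4 of 5 cultures.

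Notch1, the main receptor of crypt stem cells, was highest in stem-like cells among the named classes, followed by enteroendocrine-like cells. In stem-like cells it stood at 34.3, 31.5 and 32.5 CPM in mutant cultures and 29.5 and 24.0 CPM in control cultures. In secretory cells together it stood at 14.1, 10.8 and 10.1 CPM in mutant cultures and 13.1 and 13.1 CPM in control cultures, below the stem value in all 5 cultures by 1.24 ± 0.30 on the log2 scale (SD, n = 5). The secretory classes differed, since enteroendocrine-like cells had 27.5 ± 4.78 CPM and goblet/Paneth-like cells 6.17 ± 1.22 CPM, a difference in the same direction in 5 of 5 cultures. The enteroendocrine-like mean differed from the stem mean of 30.4 ± 3.94 CPM by less than the spread. Their order turned round when the Notch lists were kept among the clustering genes, which gave 27.5 CPM in enteroendocrine-like and 25.04 CPM in stem-like cells, and with the alternative hashtag assignment the means were 19.0 ± 10.9 and 29.3 ± 2.37 CPM. The shallow unnamed cluster had 41.0 CPM (Poisson 95% interval 30.6 to 54.0). Another unnamed cluster, of 128 cells, had the stem markers Olfm4 and Ascl2 among its top 10 genes. Its Notch1 level was 16.7 CPM (12.3 to 22.1), against 29.7 CPM (24.2 to 36.2) in stem-like cells pooled. Cycling-like cells had 20.2 ± 3.20 CPM and enterocyte-like cells 4.39 ± 1.73 CPM.

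Notch2, the other receptor among the 10 genes, had 199 counts in all and none in the 146 secretory cells of any culture. The floor of 3 counts over the 2500280 secretory UMIs is 1.2 CPM. Stem-like cells pooled had 8.40 CPM (28 counts, Poisson interval 5.58 to 12.1 CPM), which is 7.0-fold that floor. This ratio leaves out the counting error of the stem-like value, so it is not a lower bound on the difference. Stem-like and cycling-like cells did not differ beyond the spread, at 7.97 ± 3.62 CPM and 7.58 ± 1.404 CPM, and enterocyte-like cells had 3.69 ± 3.21 CPM (SD, n = 5). The enterocyte-like counts all came from 1 of that class's 2 clusters, led by Lgals3, F3 and Anxa1, with 19 counts, against 0 in the cluster led by Apoa1. The shallow unnamed cluster had 20.9 CPM (26 counts). With the alternative hashtag assignment, the Notch2 mean was 0.572 CPM in goblet/Paneth-like and 2.39 CPM in enteroendocrine-like cells, and a finer clustering gave 0.464 CPM in goblet/Paneth-like cells.

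Mfng, a fringe enzyme that adds sugars to Notch receptors and so alters which ligand they answer to, had only 25 counts, 17 of them in enteroendocrine-like cells, or 68.0% of the counts in a class with 2.31% of the UMIs. These cells had 0, 9.97 and 29.5 CPM in mutant cultures and 21.6 and 43.1 CPM in control cultures, and goblet/Paneth-like cells had a single count. Enteroendocrine-like cells were higher than goblet/Paneth-like cells in 4 of 5 cultures, and mutant culture 1 had no count in either. The cluster includes 9 cells with at least 5 UMIs of tuft cell markers, which held 4 of these counts, and the other 54 cells held 13.

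Hes1, the repressor that Notch signalling turns on, was highest in stem-like cells among the named classes. It stood there at 120, 140 and 152 CPM in mutant cultures and 144 and 121 CPM in control cultures. Secretory cells had 45.3, 25.2 and 80.7 CPM in mutant cultures and 59.0 and 39.3 CPM in control cultures. No secretory value reached the lowest stem value, and the mean log2 difference, secretory minus stem, was -1.52 ± 0.57 (SD, n = 5). Cycling-like cells, at 107 ± 14.6 CPM, were below stem-like cells, at 135 ± 14.1 CPM, in 5 of 5 cultures. Goblet/Paneth-like cells had 54.9 ± 21.8 CPM, enterocyte-like cells 46.8 ± 10.4 CPM and enteroendocrine-like cells 38.5 ± 30.6 CPM, with no difference between these beyond the spread, so that Hes1 was low in the absorptive class as well as in the secretory ones. The enterocyte-like cluster led by Lgals3, F3 and Anxa1 had 55.8 CPM (205 counts), and the one led by Apoa1 had 33.1 CPM (75 counts). The shallow unnamed cluster had 170 CPM (Poisson 95% interval 148 to 194), against 136 CPM (124 to 149) in stem-like cells pooled. The unnamed cluster with Olfm4 and Ascl2 had 132 CPM (119 to 146).

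Nrarp, a Notch target that feeds back to limit the signal, did not follow Hes1. It was highest in cycling-like cells, at 25.7, 24.1 and 16.8 CPM in mutant cultures and 30.1 and 28.4 CPM in control cultures, against 4.89, 10.01 and 21.7 CPM in stem-like cells of mutant cultures and 10.7 and 7.20 CPM in those of control cultures. The cycling value was the higher in 4 of 5 cultures, the exception being mutant culture 3. The other classes, at 9.60 ± 5.35 CPM in enterocyte-like, 7.13 ± 6.92 CPM in goblet/Paneth-like and 4.12 ± 5.66 CPM in enteroendocrine-like cells, followed stem-like cells, at 10.9 ± 6.45 CPM, in this order, and no neighbours differed beyond the spread (SD, n = 5). An unnamed cluster led by Atf5 and Psph held another 112 of the 595 Nrarp counts, at 26.5 CPM. The unnamed cluster with Olfm4 and Ascl2 had 18.4 CPM (53 counts), against 11.1 CPM (37 counts) in stem-like cells pooled.

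**Figure D2:**
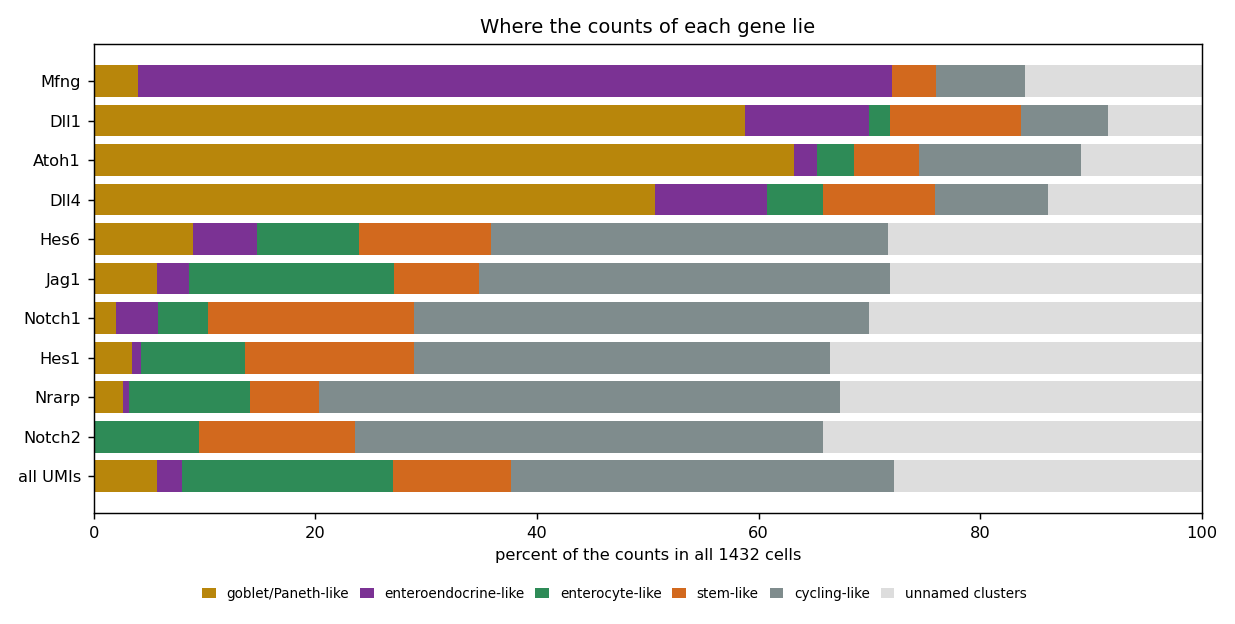
Percent of each gene's counts (horizontal axis, linear, from 0) that lay in each named cell class or in the unnamed clusters, with all UMIs as the bottom bar. The secretory classes hold 8.01% of all UMIs, but 72.0% of Mfng, 69.9% of Dll1, 65.3% of Atoh1 and 60.8% of Dll4 counts, and none of the Notch2 counts.

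Counted together, 9 of the 10 genes had at least 20 counts in secretory and stem cells combined. Dll1, Dll4, Hes6 and Atoh1 were higher in secretory than in stem cells in all 5 cultures (4 of 9, against 14.7% of all 10094 genes with as many counts), and Notch1, Notch2 and Hes1 were lower in all 5 (3 of 9, against 13.1%). Against absorptive cells, 5 of 8 genes were higher in secretory cells in every culture, Dll1, Dll4, Notch1, Hes6 and Atoh1, where 30.8% of all genes were, and none was lower, where 16.4% were. In stem cells, 4 of 8 were higher than in absorptive cells in every culture, Dll1, Notch1, Hes1 and Hes6, where 33.0% of all genes were, and none was lower, where 19.0% were. Cycling cells were below stem cells in all 5 cultures for 2 of 8 genes, Dll1 and Hes1, where 16.9% of all genes were, and above for none, where 15.3% were. Between the secretory classes, Notch1 and Hes6 were higher and Dll4 and Atoh1 lower in enteroendocrine-like than in goblet/Paneth-like cells in all 5 cultures (2 and 2 of 6 genes, against 18.8% and 6.09% of all genes). Set against stem cells one class at a time, goblet/Paneth-like cells were higher in all 5 cultures for Dll1, Dll4 and Atoh1 (3 of 9 genes, against 7.61% of all genes) and lower for Notch1, Notch2 and Hes1 (3 of 9, against 17.1%). Enteroendocrine-like cells were higher for Hes6 (1 of 7, against 17.4%) and lower for Notch2 and Hes1 (2 of 7, against 10.3%). The genes were proposed with such values in view, so these counts describe them.

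Of the wider list of 48 Notch pathway genes, 27 had at least 20 counts in secretory and stem cells. Of these, 6 of 27 were higher in secretory cells in every culture, against 14.7% of all genes, among them the ligand Jag2, the gamma-secretase subunit Psenen, the ubiquitin ligase Itch, the co-repressor Spen and the acetyltransferase Kat2b. Aph1a, another gamma-secretase subunit, was the only lower one, against 13.1% of all genes. The Delta-type protein Dll3 had 18 counts, 13 in goblet/Paneth-like and 4 in enteroendocrine-like cells, and the Notch-related ligand Dner had 17 counts, 15 in enteroendocrine-like cells. Hes5, another Hes target of Notch, had 50 of 106 counts in cycling-like cells, and Hey1, Hey2 and Heyl had 1, 1 and 0 counts in all cells. Among 20 lineage genes, 19 had enough counts. The secretory factors Gfi1, Spdef, Neurog3, Klf4, Insm1 and Creb3l4 were higher in secretory than in stem cells in every culture (6 of 19, against the same 14.7%), and Olfm4, Ascl2, Hnf4g and Gata6 were lower (4 of 19, against 13.1%). Spdef, Neurog3 and Insm1 among these, and Olfm4 and Ascl2, are also markers that named the clusters.

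Shares of cells with a UMI were compared after every cell was thinned to 3832 UMIs, since medians were 15330 UMIs in secretory, 18311 in stem-like and 27065 in enterocyte-like cells. This kept 1284 of the 1432 cells, with 242 of 282, 249 of 281 and 175 of 197 in mutant cultures and 301 of 323 and 317 of 349 in control cultures. Dll1 was then found in 17 of 79 goblet/Paneth-like cells, or 21.5% (exact binomial 95% interval 13.1% to 32.2%), in 2 of 170 stem-like cells, or 1.18% (0.143% to 4.19%), and in 1 of 219 enterocyte-like cells, or 0.457%. Without thinning the shares were 55.4%, 8.67% and 1.29%. Among enteroendocrine-like cells, 3 of 56 thinned cells had Dll1, or 5.36% (1.12% to 14.9%), an interval that overlaps the stem-like one. Atoh1 was found in 20.3% of thinned goblet/Paneth-like (12.04% to 30.8%), 2.94% of stem-like and 0.913% of enterocyte-like cells. For Dll4 and Hes6 the goblet/Paneth-like intervals, 4.47% to 19.0% and 42.8% to 65.7%, overlapped the stem-like ones, 0.365% to 5.07% and 34.3% to 49.6%. Over both secretory classes together the intervals, 5.23% to 15.9% for Dll4 and 53.5% to 70.4% for Hes6, lay above those of stem-like cells. Hes1 was found in 14.1% of secretory cells (8.69% to 21.1%), 32.9% of stem-like cells (25.9% to 40.6%) and 15.1% of enterocyte-like cells (10.6% to 20.5%), and unthinned in 35.6%, 71.1% and 49.8%. Notch2 was found in 0 of 135 thinned secretory cells, which allows a share of up to 2.22% by 3 counts of the total and up to 2.70% by the exact binomial interval, and in 4.71% of stem-like cells (2.05% to 9.06%). Notch1 was found in 17.9% of enteroendocrine-like (8.91% to 30.4%), 1.27% of goblet/Paneth-like (0.0320% to 6.85%) and 8.82% of stem-like cells (5.02% to 14.1%). The intervals cover counting error only, and the part of free RNA in these shares was not estimated.

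**Figure D3:**
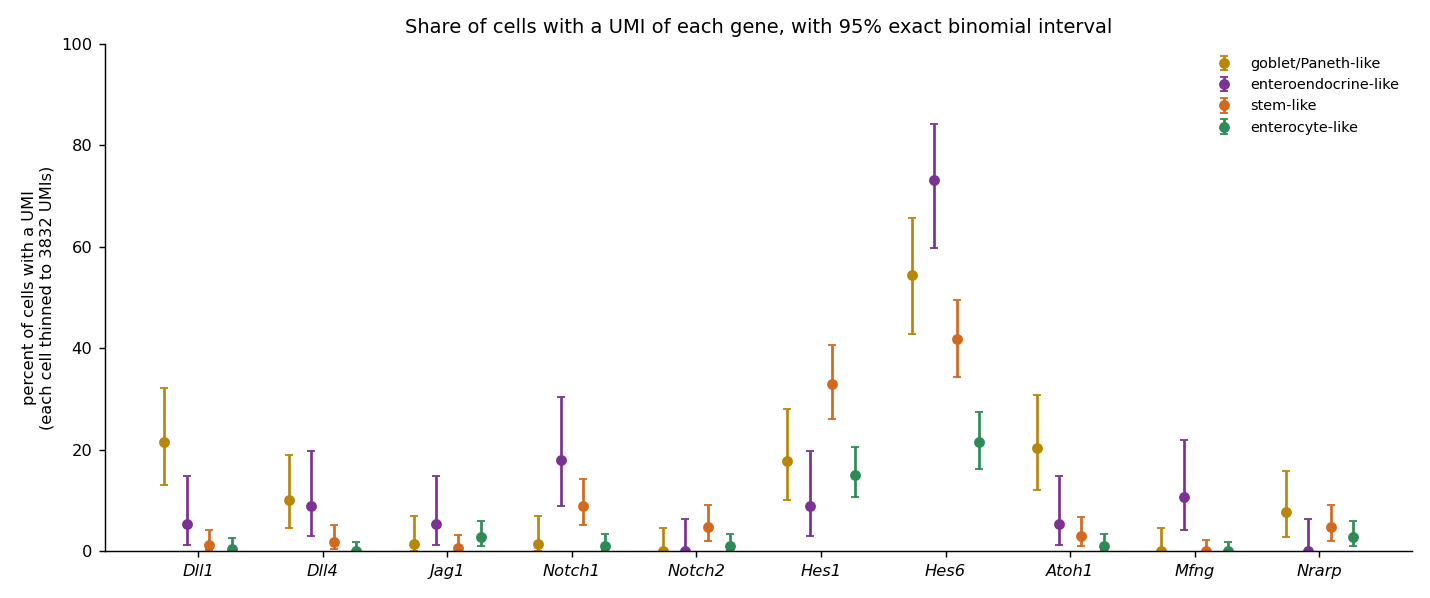
Percent of cells with a UMI of each gene (vertical axis, linear) after thinning each cell to 3832 UMIs, in 4 cell classes; points are shares over all 5 cultures and bars are exact binomial 95% intervals. The Dll1 and Atoh1 intervals of goblet/Paneth-like cells lie above those of stem-like and enterocyte-like cells, and the Hes1 interval of stem-like cells lies above that of enterocyte-like cells. The Dll4 and Hes6 intervals of goblet/Paneth-like cells overlap those of stem-like cells, and the Hes6 interval of enteroendocrine-like cells lies above that of stem-like cells.

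Within goblet/Paneth-like cells the genes were read cell by cell, with cells that are not replicates and no test. After thinning, Dll1 was seen in 6 of 16 cells with an Atoh1 UMI, or 37.5%, and in 11 of 63 cells without, or 17.5%. Unthinned, the shares were 56.5% and 54.1%, with median depths of 20902 and 16563 UMIs. Dll1 was seen in 2 of 8 thinned cells with Dll4, or 25%, and in 15 of 71 without, or 21.1%. Hes1 was seen in 18.8% of the 16 thinned cells with Atoh1, and in 17.7% of all 79 thinned goblet/Paneth-like cells. In stem-like cells Notch1 was seen in 7 of 56 thinned cells with Hes1, or 12.5%, and in 8 of 114 without, or 7.02%. The thinned counts are too small for an order to be read from them.

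The secretory classes were also divided within. For these divisions the share of all genes with the same direction in every culture was not counted. Goblet/Paneth-like cells were divided by whether goblet or Paneth marker UMIs prevailed, which gave 48 goblet-leaning and 35 Paneth-leaning cells, 15 of the 83 lying near the cut. Atoh1 pooled was 115 CPM in goblet-leaning cells (Poisson 95% interval 94.95 to 139) against 48.9 CPM in Paneth-leaning cells (34.9 to 66.6), and it was higher in goblet-leaning cells in 5 of 5 cultures. Hes6 was 254 CPM (223 to 288) against 164 CPM (137 to 194), and Dll1 60.3 CPM (45.8 to 78.0) against 39.1 CPM (26.7 to 55.2), both also higher in goblet-leaning cells in 5 of 5 cultures, although the Dll1 intervals overlap. Dll4, at 23.9 CPM against 20.8 CPM, was higher in 3 of 5. Gfi1, a factor of the goblet and Paneth lineages, went the other way in 4 of 5 cultures, at 13.5 CPM (7.20 to 23.1) in goblet-leaning against 28.1 CPM (17.8 to 42.2) in Paneth-leaning cells.

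Enteroendocrine-like cells were divided by a UMI of Neurog3, the factor that starts the enteroendocrine programme and is switched off as cells mature, into 32 cells with and 31 cells without. Hes6 was counted in all 32 cells with Neurog3 and in 24 of the 31 without. Its pooled level was 391 CPM (332 to 457) in cells with Neurog3 against 276 CPM (222 to 340) in cells without, and it was higher in cells with Neurog3 in 5 of 5 cultures. Dll1 was 34.9 CPM (19.1 to 58.5) against 9.42 CPM (1.94 to 27.5) and Hes1 49.8 CPM (30.4 to 76.9) against 15.7 CPM (5.10 to 36.6), each higher with Neurog3 in 4 of 5 cultures, on 14 and 3 Dll1 counts and 20 and 5 Hes1 counts. Of the 14 Dll1 counts, 7 came from mutant culture 1 and 4 from mutant culture 3. Mfng, at 22.4 CPM against 25.1 CPM, and Notch1, at 29.9 CPM against 25.1 CPM, had intervals that overlap. Both divisions were chosen after the data were seen, and cells without a Neurog3 UMI were shallower, with a median of 7857 UMIs, against 10156 UMIs in cells with one. The 9 cells with at least 5 UMIs of tuft cell markers had no Neurog3 count, so all of them lay among the 31 cells without. They held 2 of the 3 Dll1 counts, 4 of the 8 Mfng counts and none of the 5 Hes1 counts of those 31 cells.

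**Figure D4:**
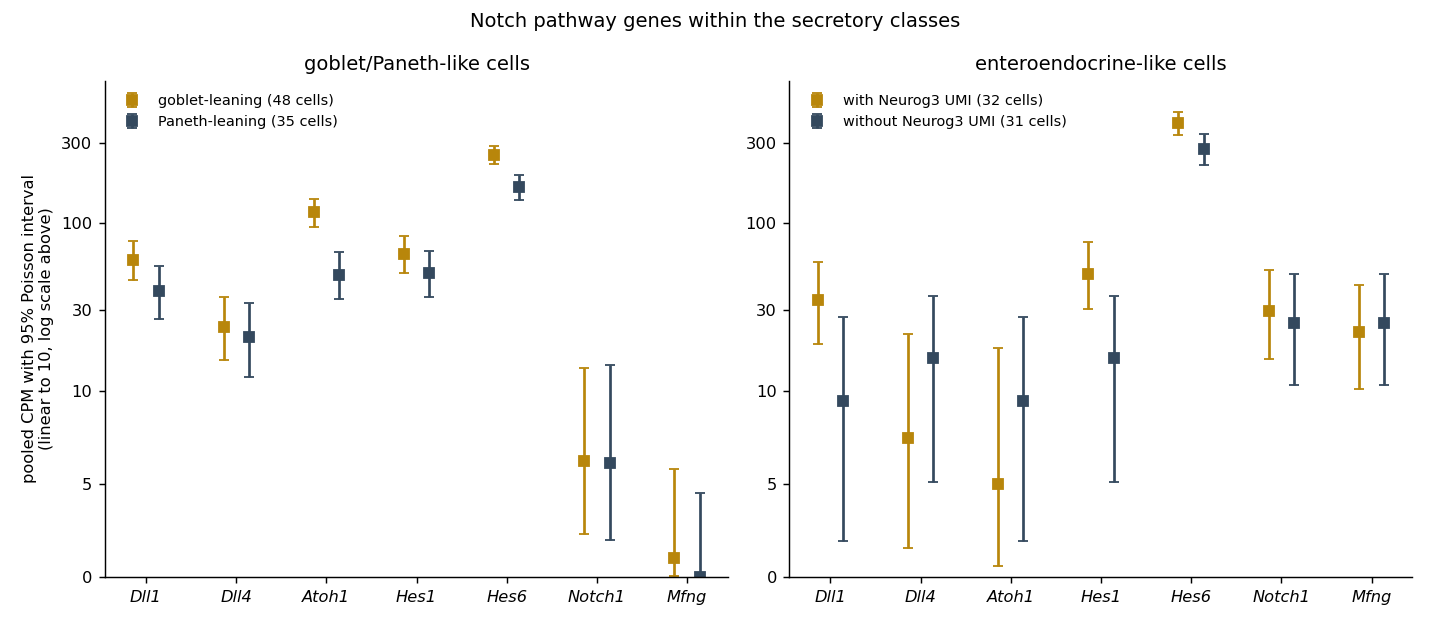
Pooled CPM of 7 of the genes (vertical axis, linear to 10 and logarithmic above) in goblet-leaning and Paneth-leaning cells (left) and in enteroendocrine-like cells with and without a Neurog3 UMI (right); bars are Poisson 95% intervals of the pooled counts. Atoh1 and Hes6 are higher in goblet-leaning cells with intervals that do not overlap, and Dll1, Hes1 and Hes6 have their higher value in cells with Neurog3.

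Between genotypes, none of the 10 genes passed the test in any class. In all cells, where 9 of the 10 genes had enough counts for edgeR's quasi-likelihood test, 2 were above and 7 below 0 in mutant minus control, and none was called (0.00904% of all 11061 genes were, which is Pyy alone). The smallest adjusted p among them was 0.9997, and none had an unadjusted p under 0.05, as 337 of all genes had. Etv1 had a log2 fold change of -1.001 ± 0.22 (standard error) with an unadjusted p of 0.0028 and an adjusted p of 0.9997 in the same edgeR test. Within enteroendocrine-like cells, which held nearly all of its counts and made up a smaller share of mutant cultures 1, 2 and 3 than of either control culture, Etv1 stood at 167, 179 and 128 CPM in mutant cultures against 186 and 237 CPM in control cultures. In secretory cells together its log2 fold change was -0.60 ± 0.34, with an unadjusted p of 0.10 and an adjusted p of 0.9995 by edgeR.

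Of the 9 tested genes, Dll4 had the largest difference in all cells, at 2.08, 1.38 and 2.86 CPM in mutant cultures against 2.62 and 3.71 CPM in control cultures, a log2 fold change of -0.63 ± 0.38 (standard error). The groups overlap. Atoh1 stood at 6.74, 4.74 and 10.5 CPM in mutant cultures against 6.75 and 10.4 CPM in control cultures, with a log2 fold change of -0.28 ± 0.34. Dll1, at 3.37, 3.21 and 9.78 CPM in mutant cultures against 4.14 and 5.71 CPM in control cultures, had 0.06 ± 0.50, and its highest value was mutant culture 3, without which it was -0.59. These genes are read from whole cultures in which secretory cells made up 7.45%, 6.76% and 13.7% of the cells in mutant and 10.2% and 13.2% in control cultures, and the part of those shares in the values was not tested. The other genes lay closer to 0, with Notch1 at -0.14 ± 0.13, Nrarp at -0.08 ± 0.14, Notch2 at -0.07 ± 0.30, Jag1 at -0.06 ± 0.19, Hes6 at -0.04 ± 0.10 and Hes1 at 0.04 ± 0.12.

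Mfng did not pass the test's count filter, with 1, 1 and 4 counts in mutant cultures against 8 and 11 in control cultures. It was the only one of the 10 genes whose mutant and control values did not overlap in all cells, at 0.160, 0.153 and 0.954 CPM against 1.10 and 1.57 CPM, where 7.77% of the 11061 tested genes lay lower and 9.12% higher in mutant cultures without overlap. With no count filter its log2 fold change was -1.83 ± 0.78, with an unadjusted p of 0.046 and an adjusted p of 0.979 by edgeR, and DESeq2 gave -1.78 ± 1.16 with an adjusted p of 0.9997. Enteroendocrine-like cells, which held most Mfng counts, made up 2.48%, 3.56% and 5.08% of the cells in mutant cultures against 5.57% and 5.16% in control cultures, and the part of that in the Mfng difference was not tested.

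Within secretory cells, 5 of the 10 genes were tested and none was called (0.0169% of 5926 genes were). Dll1 had a log2 fold change of 0.48 ± 0.31, Hes6 of 0.35 ± 0.19, Hes1 of 0.09 ± 0.40, Atoh1 of -0.03 ± 0.28 and Dll4 of -0.38 ± 0.42, each with an adjusted p of 0.9995 by edgeR. Among these 5 genes, the secretory values given above did not overlap for Hes6, higher in each mutant culture than in each control culture, where 11.3% of the 5926 genes were, and for Dll4, lower in each mutant culture, where 7.05% were. Over all cells the Paneth marker list summed to 1033 to 2326 CPM in mutant and 2626 to 6831 CPM in control cultures and the enteroendocrine list to 180.3 to 186.5 CPM in mutant and 198.5 to 644.6 CPM in control cultures, without overlap, and their part in these values was not tested. In stem-like cells 3 genes were tested and none was called (0.0146% of 6842 genes), with Notch1 at 0.23 ± 0.29, Hes1 at 0.02 ± 0.16 and Hes6 at -0.26 ± 0.15. The test of whether the genotype difference of Hes6 differed between secretory and stem cells gave 0.59 ± 0.23, with an unadjusted p of 0.021 and an adjusted p of 0.888 by edgeR, and none of the 6 genes tested was called, as 0% of 7427 genes were (357 had an unadjusted p under 0.05, and DESeq2 was not run on this term). In cycling-like cells 7 genes were tested and in enterocyte-like cells 3, and none was called (0.0215% of 9290, with 0.0108% higher and 0.0108% lower in mutant cultures, and 0% of 7233 genes were). In the enterocyte-like fit 179 genes had an unadjusted p under 0.05 and DESeq2 called 0. Thinned shares of cells were set against each other over the 10 splits of the cultures, where an exact permutation test, two-sided, cannot give a p below 0.1. Of 20 such tests in secretory and stem cells, 2 reached it, Hes6 with a mean over cultures of 66.2% of mutant against 58.5% of control secretory cells and Jag1 with 0% against 5.80%, and the adjusted p was 1 for all 20 by the exact permutation test. The Jag1 shares rest on 4 of 135 thinned secretory cells. Before thinning, Jag1 was counted in secretory cells of each mutant culture.

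**Figure D5:**
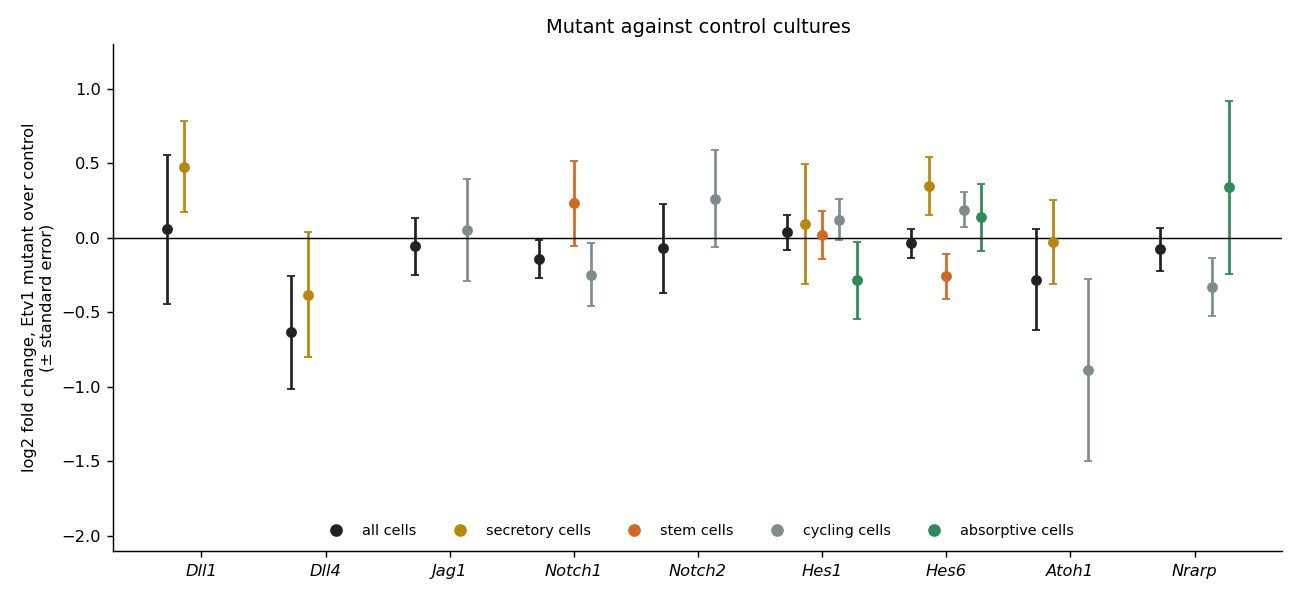
Log2 fold change of 9 of the genes, Etv1 mutant over control (vertical axis), from edgeR's test on counts summed per culture, in all cells and in the classes where the gene had enough counts; bars are standard errors. The values scatter on both sides of 0 and none passed the test.

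Of the wider Notch list, 32 of 48 genes were tested in all cells, 13 above and 19 below 0, with a median of -0.04 against 0.0047 for all genes, and none was called. The smallest p-values were those of Neurl1b, a ubiquitin ligase of the ligands, at 0.81 ± 0.38, Kat2b at -0.50 ± 0.24 and Aph1b, a gamma-secretase subunit, at -0.73 ± 0.45. Kat2b stood at 4.33, 3.97 and 5.49 CPM in mutant cultures against 5.65 and 7.14 CPM in control cultures, with no overlap, and had an adjusted p of 0.9997 by edgeR. Aph1b also lay lower, and Neurl1b higher, in mutant cultures without overlap. Of the 11061 tested genes, 7.77% lay lower and 9.12% higher in this way. Of the 20 lineage genes 19 were tested, 9 above and 10 below 0, with a median of -0.04, and none was called. The smallest p-values here were those of Hnf4g, at 0.31 ± 0.17, Neurog3, at 0.77 ± 0.49, and Klf5, at 0.16 ± 0.10, each with an adjusted p of 0.9997 by edgeR. Hnf4g and Klf5 lay higher in mutant cultures without overlap, and the Neurog3 values overlapped.

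The genes whose levels followed those of 3 of the 10 genes most closely were named by Spearman's rho over 20 sums, 1 for each culture and each of the secretory, absorptive, stem and cycling classes, among 7498 genes. These sums share cultures and classes, so the values describe likeness and carry no test. Dll1 was followed by Cpsf7 (0.91), Stard10 (0.91), Fryl (0.90), Map2k6 (0.90) and Fam174b (0.90). Atoh1 was followed by Ssr3 (0.91), Defa43 (0.89), Laptm4b (0.88), R3hdml (0.88) and Snd1 (0.87). Hes1 was followed by Uaca (0.94), Rps12 (0.91), Afap1l1 (0.91), Rpl39 (0.91) and Jaml (0.91).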

How the data were processed

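The RNA table holds estimated counts per gene and barcode, deposited by the authors, and the hashtag table holds whole counts per hashtag and barcode, also deposited by the authors. Cell Ranger 6.1.0, alevin, Salmon 1.4.0 and Seurat 4.3.0 and the build mm10 are named in the submitters' processing notes, with no role given. Of the RNA values above 0, 95.6% were whole, and sums were rounded before testing. The sources used here do not say whether counting used strand, so counts of Dll1, Dll4, Notch1 and Nrarp, which overlap genes on the opposite strand, and of Notch1 and Notch2, which overlap genes on their own strand, may include reads of those.

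All 3409 barcodes were assigned to cultures with HTODemux (Seurat 5.3.0, quantile 0.99), which left 273 with several hashtags, removed as doublets, and 1322 with none. No doublet caller was run, so doublets within a culture remain. Cells had at least 500 genes and at most 25% mitochondrial counts. Clusters (scanpy 1.11.5, 2000 variable genes without the Notch genes, 30 components, 15 neighbours, Leiden resolution 0.8) were named from at least 3 markers at least 0.5 log2 higher and in 25% of the cells. The Lgals3, F3 and Anxa1 cluster was named enterocyte-like with no marker among its top 10 genes. Counts were summed per culture and class, and mutant and control cultures were compared with edgeR 4.0.16 (TMM, filterByExpr, Benjamini-Hochberg, threshold 0.05) on all genes, in classes with at least 15 cells per culture. The labels call the cultures biological replicates and do not say whether they came from separate mice. SDs over 5 cultures span both genotypes. The edgeR step was tested on simulated data. Alternatives were DESeq2 1.42.0, other size factors, no count filter, each culture left out, MULTIseqDemux, a stricter cell filter, equal cell numbers, other clusterings and shares without thinning.

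The 10 genes are all named, with listed genes past a test or with the 3 smallest p-values per list and the 5 genes most like Dll1, Atoh1 and Hes1 among those with a mean of at least 10 CPM. Dll3, Dner, Hes5, the Hey genes, and the list genes given as holding 1 direction in every culture were named after their values were seen. The result of 1 gene of the wider list is not reported here. The genes and lists were chosen with earlier results of these data known.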

Additional observations from a re-analysis of the deposited data

Results flagged for a closer look

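Of the barcodes that passed the cell filter, 1054 carried no hashtag and so entered no comparison. Placed among the clusters by their nearest assigned cells, they held counts of all 10 genes above the floor of 3 counts in at least 1 named class, which is what drew attention to them. The 17 barcodes placed among goblet/Paneth-like cells had Dll1 at 99.1 CPM, Dll4 at 45.7 CPM and Atoh1 at 95.3 CPM. The 27 placed among enteroendocrine-like cells had Hes6 at 443 CPM, Notch1 at 31.9 CPM and Mfng at 35.9 CPM. The 101 placed among stem-like cells had Hes1 at 140 CPM, and the 102 placed among cycling-like cells had Nrarp at 30.1 CPM, Jag1 at 9.02 CPM and Notch2 at 7.14 CPM. Each of these 10 values is the gene's highest among the named classes where it had more than 3 counts. Notch2 had 1 count in the goblet/Paneth-like and 1 in the enteroendocrine-like barcodes, against none in the 146 assigned secretory cells. These are 3.81 and 3.99 CPM, both below the floor of 3 counts, beside 4.76 CPM (7 counts) in the stem-like barcodes. These barcodes cannot be assigned to a culture or genotype, and placing them by nearest cells uses the same RNA.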

How the results depend on the processing

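The counts of genes that were higher or lower by class kept within 1.5 times under every alternative run, including the removal of the 9 cells with tuft markers, except that MULTIseqDemux gave 1 gene lower in secretory than absorptive cells in every culture in place of 0. With a culture left out, the count stayed at 4 for secretory above stem, 3 for secretory below stem and 5 for secretory above absorptive, and ran from 4 to 6 for stem above absorptive. Of the 50 class means, 7 moved by more than their SD under at least 1 alternative. Dll4 in goblet/Paneth-like cells was 29.6 CPM with MULTIseqDemux and 42.7 CPM as a mean over cells, Nrarp in enterocyte-like cells 15.6 CPM as a mean over cells, and Notch1 in goblet/Paneth-like cells 4.68 CPM as a mean over cells and 4.85 CPM with coarser clusters. The other 4 were Notch1 in enteroendocrine-like and in stem-like cells and Notch2 in both secretory classes, with the values given above. None of the 10 genes was called under any alternative. The number of called genes over the whole table, by contrast, was unsteady. In all cells it was 1, and 6 with DESeq2, 2 with no filter, 2 with MULTIseqDemux, 0 with equal cell numbers and 1 to 6 with a culture left out. In secretory cells it was 1, and 2 with DESeq2, 70 with no filter and 1 to 18 with a culture left out. In absorptive cells it was 0, and 39 with no filter and 0 to 3 with a culture left out. In stem cells it was 1, and 23 with no filter and 1 to 22 with a culture left out. In cycling cells it was 2, and 1 with DESeq2, 1 with MULTIseqDemux and 0 to 5 with a culture left out. For the genotype by class term it was 0, and 31 with no filter and 1 to 16 with a culture left out. Among the listed genes, the fits with no filter called Neurog3 (log2 fold change 1.19) and Olfm4 (-1.16) in secretory cells. For the genotype by class term they called Sox4 (1.14) and Olfm4 (-1.59), and Olfm4 was also called there without mutant culture 3 (-2.50). Without control culture 1, which leaves a single control, Olfm4 stood at 0.72 in stem cells and -2.15 for that term. Without control culture 2 Sox4 stood at -0.67 in stem cells and 1.67 for that term. The cause was not tested.

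The genotype values near 0 changed sign. In all cells, leaving out a culture gave -0.59 to 0.33 for Dll1, -0.13 to 0.0024 for Jag1, -0.35 to 0.15 for Notch2, -0.073 to 0.092 for Hes1, -0.077 to 0.037 for Hes6, -0.59 to 0.039 for Atoh1 and -0.21 to 0.053 for Nrarp. Equal cell numbers gave 0.049 for Notch2 and -0.061 for Hes1, and MULTIseqDemux gave -0.018 for Hes1 and 0.081 for Atoh1. In secretory cells, leaving out a culture gave -0.23 to 0.17 for Atoh1 and -0.48 to 0.445 for Hes1, and MULTIseqDemux gave 0.34 for Atoh1. In stem cells MULTIseqDemux gave -0.078 for Hes1, and leaving out a culture gave -0.13 to 0.16. Without thinning, Hes1 was seen in 56.5% of goblet/Paneth-like cells with Atoh1 and in 49.4% of all goblet/Paneth-like cells. Notch1 was seen in 41.5% of stem-like cells with Hes1 and in 38.2% of all stem-like cells. No paired analysis was possible because the labels give each culture only a hashtag and no replicate number, and the numbers used here only name the cultures in the order their hashtags are listed. Depth limits Mfng, with 25 counts, and Dll4, with 79, the most among the 10 genes.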
